A study of Homo sapiens with 24 samples.

Results

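The genes described here were 41 genes of the ATF4 branch of the integrated stress response and of amino acid supply, chosen by symbol from a fixed list and found among the 43037 genes of the table through their Ensembl identifiers. They comprised 8 transcription factors, 8 feedback and stress effectors, 7 enzymes of serine, glycine and one-carbon metabolism, 4 enzymes of asparagine, proline and transsulfuration metabolism, 6 amino acid transporters, and 8 genes of tRNA charging and tRNA export. All 41 were found and all 41 passed the filter on low values (at least 5 CPM in at least 1 library), among 12327 genes that did. Transcript starts were measured by CAGE-Seq, which sequences the capped 5′ ends of RNA, so that one tag stands for one captured transcript start. Each of 4 glioblastoma lines (T98G, U87MG, DBTRG-05MG and U251MG) was studied as 2 stably transduced variants with 3 libraries, which the labels call biological replicates. The WWOX variant carried a lentiviral vector (pLenti-GIII-CMV-GFP-2A-Puro) that expresses WWOX, an oxidoreductase with WW domains described as a tumor suppressor, from the CMV promoter. The Vec variant was transduced with Puro-Blank Lentivirus, and both variants were selected with puromycin. T98G was grown in MEM with non-essential amino acids, DBTRG-05MG in RPMI 1640 with sodium pyruvate, and U251MG and U87MG in EMEM with both additions. Every medium also contained L-glutamine and serum. The comparison of WWOX with Vec within a line asks what WWOX overexpression does to these genes, and that of the Vec groups asks how the lines differ without it.

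In the integrated stress response, kinases that sense amino acid shortage, unfolded protein in the endoplasmic reticulum, double-stranded RNA or heme deficiency phosphorylate the initiation factor eIF2. General translation then drops, whereas translation of ATF4 mRNA increases, so that much of the control of ATF4 lies outside the reach of a transcript count. ATF4 pairs with other bZIP factors, including the C/EBP proteins, and activates genes that make, import and charge amino acids, together with feedback inhibitors such as TRIB3 and PPP1R15A. Serine synthesis and cystine uptake are known outputs of this program.

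ATF4 and its C/EBP partners bind a composite element written TGATGNAAN, which was searched for on both strands in the RefSeq promoter windows (GRCh38.p14, 250 bases before to 50 bases after the annotated start). A window was at hand for 35 of the 41 genes, and not for NUPR1, PSPH, SHMT2, ALDH1L2, PYCR1 and SLC7A11. The element occurred in 9 of the 35 (25.7%) and in 1268 of all 35116 windows (3.61%). The stretches below show the element in capitals, in the direction of the gene, with 10 bases on either side, in the 3 windows where it stood furthest upstream of the start, as examples of both of its orientations, and GTTGCATCA is the element read on the other strand. That of ATF3 lies at chr1:212565206-212565234 on the plus strand, upstream of the GENCODE gene model. That of CHAC1 lies at chr15:40953251-40953279 on the plus strand, and that of AARS1 at chr16:70289676-70289704 on the minus strand, both within the GENCODE gene span.
ATF3: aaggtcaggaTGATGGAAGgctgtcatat
CHAC1: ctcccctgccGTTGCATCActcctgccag
AARS1: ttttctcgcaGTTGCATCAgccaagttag
The other 6 windows with the element were those of MTHFD1L, ASNS, CARS1, SLC3A2, MARS1 and SLC7A1. The element of the endoplasmic reticulum stress response (ERSE) was in none of the 35 windows and in 27 of the 35116 (0.0769%). These matches are a description of letters in a short window, and elements outside it were not searched for.

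The libraries held 10756072 to 16953689 tags on genes, with a median of 14584829. CD44 was at 678 to 3520 CPM in all 24 libraries, and the summed leukocyte markers (PTPRC, CD3E and CD68) stayed at or under 0.850 CPM. Summed endothelial markers reached 13.3 CPM in U251MG WWOX 1 and summed epithelial markers 30 CPM in DBTRG-05MG Vec 1. VIM was at 13.5 to 71.7 CPM and GFAP, the astrocyte intermediate filament, at no more than 11.6 CPM outside U251MG. One library, WWOX replicate 1 of U251MG, held 114 CPM of GFAP against a median of 2661 CPM over the 6 libraries of that line. Medians of the other glioma markers differed by line, given here for U87MG, T98G, U251MG and DBTRG-05MG in turn. They were 0.0351, 0.294, 122 and 63.2 CPM for SOX2 and 2.33, 0.102, 57.2 and 27.0 CPM for NES. For S100B they were 0.234, 0.0313, 191 and 3.06 CPM. OLIG2 had 2.08, 2.76, 0.0681 and 0.0343 CPM, and SLC1A3 had 21.5, 2.73, 14.5 and 0.132 CPM. Tags on WWOX itself were at 61.0 to 66.0 CPM in U87MG WWOX and 33.9 to 40.1 CPM in U87MG Vec, and also did not overlap in DBTRG-05MG (28.0 to 32.0 against 20.4 to 22.2 CPM). In T98G (45.1 to 61.8 against 34.2 to 57.2 CPM) and U251MG (17.4 to 56.7 against 31.4 to 36.8 CPM) they overlapped. A transcript started at the CMV promoter of the vector need not be counted on the WWOX gene, so these tags do not test the overexpression, and the labels were used as given. Among the members, ASNS (0.232 to 5.55 CPM), ALDH1L2 (0.0703 to 6.37 CPM) and GARS1 (0.879 to 13.6 CPM) rested on few tags. GARS1 shares its locus with the divergent transcript GARS1-DT (12.7 to 47.5 CPM) and ASNS lies within a longer gene model on the same strand. Overlaps of this kind were frequent. A gene on the opposite strand overlapped 21 members and one on the same strand 12, MARS1 and DDIT3 overlapped each other, and how tags in overlapping genes were assigned is not given in the sources used here.

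These genes differed widely between the libraries of several groups. Chosen after the values were seen, 3 libraries illustrate this. In Vec replicate 1 of U87MG, 39 of the 41 genes were higher than in the other 2 Vec libraries of that line, where 39.8% of all genes tested had their highest value in that library. The exceptions were ALDH18A1 and SLC7A1. In U251MG, 38 of 41 genes had their lowest Vec value in replicate 2 (39.4% of all genes), and 36 of 41 had their lowest WWOX value in replicate 3 (21% of all genes). DBTRG-05MG followed with 36 of 41 genes highest in Vec replicate 2 (36.9% of all genes) and 31 of 41 lowest in Vec replicate 3 (37.1%). In the WWOX group of U87MG, 32 of 41 genes were highest in replicate 1 (42.9% of all genes). In T98G no library held the highest value of more than 23 of the 41 genes. The median gene of the set deviated from its group mean by 1.03 log2 units in U87MG Vec 1, by -1.35 in U251MG Vec 2 and by -1.08 in U251MG WWOX 3, and by -0.13 to 0.11 in the 6 T98G libraries.

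**Figure D1:**
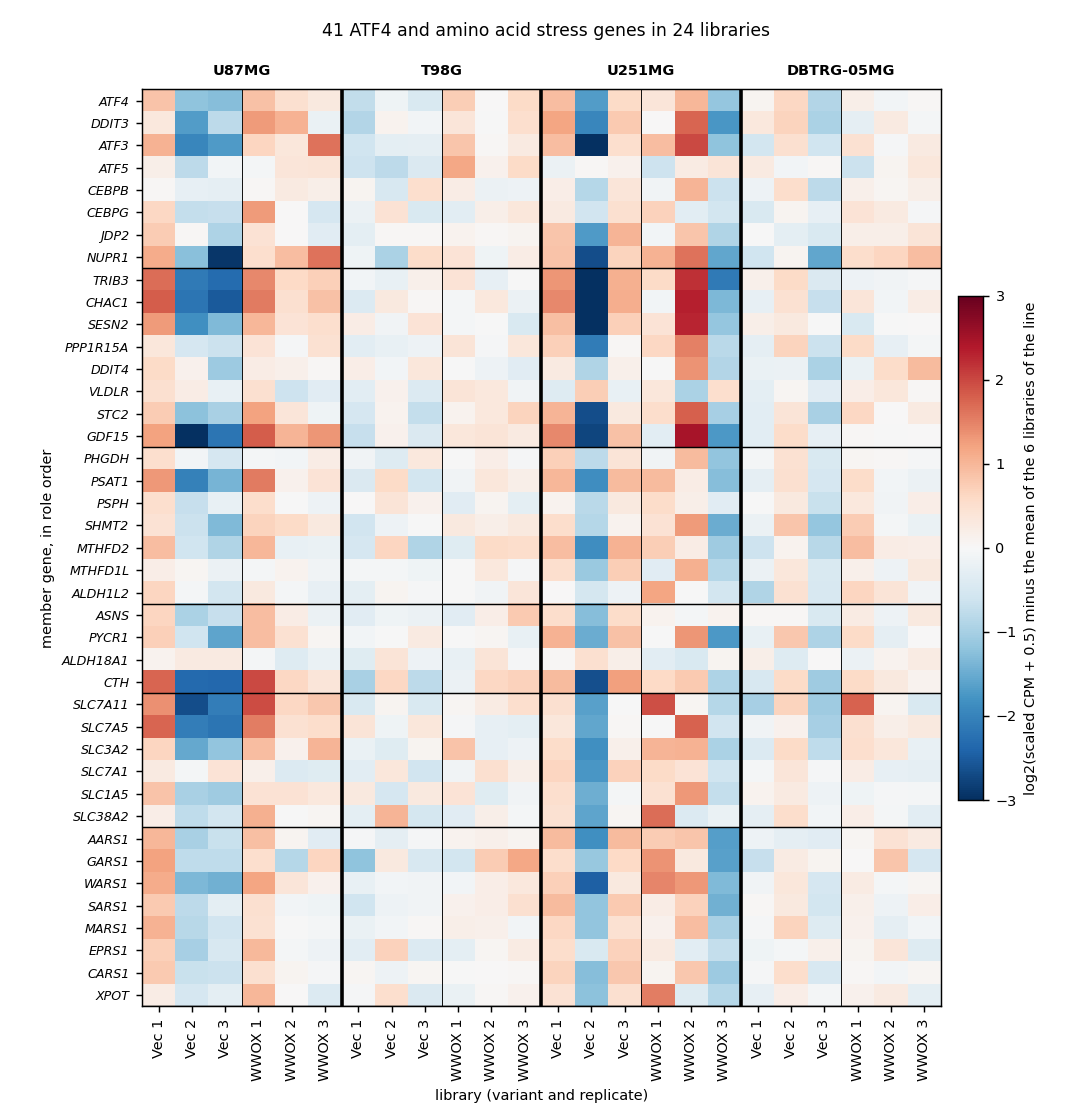
Each row is 1 of the 41 genes in role order and each column 1 of the 24 libraries; color gives log2(scaled CPM + 0.5) minus the mean of the 6 libraries of the line, and values beyond 3 in either direction take the end color. U251MG Vec 2 and WWOX 3 and U87MG Vec 2 and 3 stand out as blue columns, while the T98G columns are pale.

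Over all 8 groups the residual SD of the 41 genes had a median of 0.76 log2 units against 0.40 over all genes tested, 39 of the 41 lay above the latter value, and 28 were among the 10% of genes that varied most. CHAC1, a glutathione-degrading enzyme (residual SD 1.48), TRIB3, a pseudokinase that feeds back on ATF4 (1.43), GDF15, a secreted stress cytokine (1.39), and CTH, the cystathionine-cleaving enzyme of transsulfuration (1.30), varied most. At the other end stood ATF5 (0.39) and ALDH18A1 (0.26), the enzyme that opens proline synthesis. By group, the median SD of the 41 genes was 0.98 in U87MG Vec (0.27 over all genes), 1.17 in U251MG Vec (0.27) and 1.13 in U251MG WWOX (0.56). It was 0.45 in U87MG WWOX (0.29) and 0.49 in DBTRG-05MG Vec (0.26). In T98G Vec (0.29 against 0.36), T98G WWOX (0.25 against 0.28) and DBTRG-05MG WWOX (0.24 against 0.26) it was below that of all genes.

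Among the transcription factors, ATF4 itself took part in this pattern. ATF4 was at 436, 102 and 109 CPM in the 3 Vec libraries of U87MG and at 501, 347 and 305 CPM in the 3 WWOX libraries. In U251MG it was at 417, 75.3 and 333 CPM in Vec and at 333, 349 and 119 CPM in WWOX, so that Vec 2 and WWOX 3 were its 2 lowest libraries of that line. T98G had 395, 672 and 437 CPM in Vec and 1076, 663 and 1028 CPM in WWOX, and DBTRG-05MG 524, 730.1 and 298 CPM in Vec and 625, 514 and 499 CPM in WWOX. The ranges of Vec and WWOX overlapped in all 4 lines as deposited. After scaling for library composition, every WWOX library of T98G lay above every Vec library.

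DDIT3 encodes CHOP, a proapoptotic bZIP factor, and was held by few tags. Its CPM in U87MG were 2.27, 0.232 and 0.912 in Vec and 5.51, 4.21 and 1.52 in WWOX. For U251MG the values were 8.35, 0.557 and 6.36 in Vec and 4.05, 10.0 and 0.812 in WWOX. T98G (5.76, 13.3 and 9.42 in Vec, 13.9, 11 and 16.4 in WWOX) and DBTRG-05MG (17.7, 22.1 and 7.84 in Vec, 13.2, 19 and 13.4 in WWOX) had no library under 5 CPM. Within Vec of U251MG, DDIT3 thus spanned a 15.0-fold range. ATF3, an early stress factor that ATF4 activates, was at 96.9, 11.5 and 15.7 CPM in U87MG Vec and at 114, 7.0 and 85.5 CPM in U251MG Vec. NUPR1, a small stress-induced chromatin protein, was at 1609.6, 309 and 109 CPM in U87MG Vec and at 698, 66.6 and 622 CPM in U251MG Vec.

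Several feedback and stress effectors spanned wide ranges within a group. TRIB3 was at 113, 7.65 and 7.51 CPM in U87MG Vec, a 15.0-fold range, and at 592, 31.2 and 508 CPM in U251MG Vec, a 19-fold range. In U251MG WWOX it was at 419.6, 868 and 66.2 CPM. Its T98G Vec libraries, by contrast, lay at 614, 625 and 652 CPM. CHAC1 behaved alike, with 100.1, 5.72 and 5.05 CPM in U87MG Vec, 278, 10.0 and 222 CPM in U251MG Vec and 115, 411 and 48.6 CPM in U251MG WWOX. GDF15 was at 506, 23.5 and 53.3 CPM in U87MG Vec and at 1579, 95.1 and 1089.8 CPM in U251MG Vec, and WWOX of U251MG ranged from 216 to 2572 CPM. In each of these genes the same library was high or low.

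**Figure D2:**
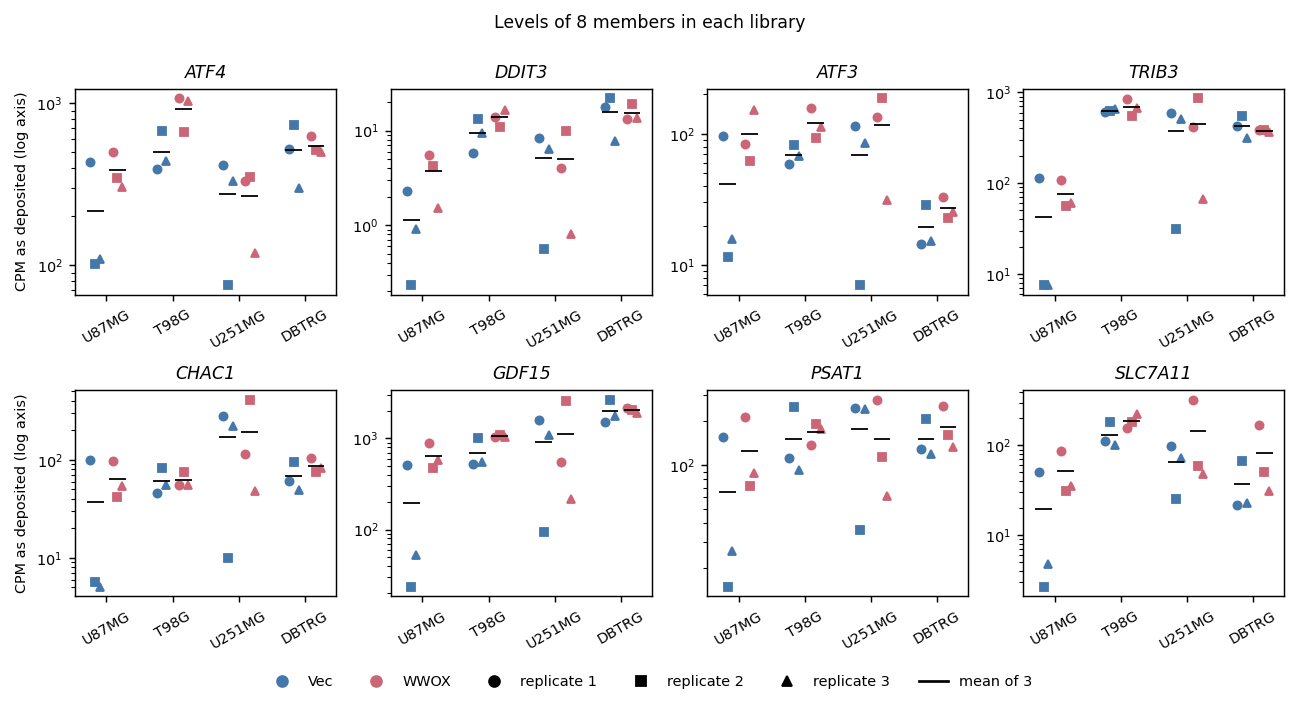
CPM as deposited (log axis) of 8 genes in each library, by line and variant, with symbols for the replicate numbers and a bar at the mean of 3. TRIB3 of U87MG Vec lies at 113 CPM in replicate 1 and near 7.5 CPM in the other 2, whereas its 3 T98G Vec libraries lie between 614 and 652 CPM.

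Several enzymes and transporters spanned ranges of similar width, up to 19.3-fold for SLC7A11 and 17.8-fold for CTH in U87MG Vec. PSAT1, the aminotransferase of serine synthesis, was at 155, 14.8 and 26.1 CPM in U87MG Vec and at 245, 36.2 and 241 CPM in U251MG Vec, while PHGDH, which opens that pathway, was at 349, 231 and 193 CPM and at 781, 302 and 635 CPM in the same groups. MTHFD2, a mitochondrial folate enzyme, was at 164, 55.5 and 50.7 CPM in U87MG Vec and at 196, 30.7 and 217 CPM in U251MG Vec. For CTH the U87MG Vec values were 167, 9.43 and 10.4 CPM. SLC7A11, the cystine importer, was at 50.6, 2.63 and 4.70 CPM in U87MG Vec. SLC7A5, the leucine transporter, was at 110.4, 7.26 and 7.51 CPM there. WARS1, which charges tRNA with tryptophan, was at 756, 134 and 144 CPM in U87MG Vec and at 497, 60.7 and 377 CPM in U251MG Vec.

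Members that did not join the pattern were few. ALDH18A1 was at 56.0, 61.4 and 69.1 CPM in U87MG Vec and at 83.1, 124 and 93.4 CPM in U251MG Vec, with Vec 2 as its highest library. VLDLR, a lipoprotein receptor and stress target, was likewise highest in U251MG Vec 2 (13.5, 33.1 and 15.7 CPM), and was lowest in WWOX 2 where most members were highest (26.8, 7.22 and 31.3 CPM). ATF5, a factor with stress-regulated translation of its own, was at 6.16, 7.88 and 7.77 CPM in U251MG Vec. In WWOX 1 of U251MG, the library with little GFAP, SLC7A11 (325 against 59.0 and 47.5 CPM), SLC38A2 (269.8 against 42.7 and 75.4 CPM) and XPOT (405 against 71.2 and 78.7 CPM) were high, whereas TRIB3, CHAC1 and GDF15 were not the highest there.

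Other gene lists were read in the same libraries. The 21 further ATF4 targets tested, which include YARS1, NARS1, BCAT1 and SQSTM1, had median deviations of 0.75 in U87MG Vec 1, -1.21 in U251MG Vec 2 and -1.02 in U251MG WWOX 3. The 8 NRF2 target genes had 0.68, -0.35 and -0.84 in these 3 libraries. In contrast, the 8 other cytosolic tRNA synthetases, which are not on the ATF4 lists, had 0.14, -0.20 and -0.11. The 14 eIF2 genes (eIF2 kinases, eIF2 and eIF2B subunits, PPP1R15B and IMPACT) had 0.03, -0.16 and -0.11. The 10 p53 targets had -0.05, 0.25 and 0.19. The 10 proliferation genes moved in the opposite sense, with -1.04, 0.99 and 1.77, and the 10 hypoxia genes had -0.34, 0.01 and -0.25. Across further libraries the relation of the 2 lists varied. Members and proliferation genes were at 0.40 and -0.84 in U87MG WWOX 1, at -0.58 and 0.79 in U87MG Vec 2, and at 0.35 and -1.68 in U251MG WWOX 1. DBTRG-05MG had 0.48 and -0.42 in Vec 2 and -0.42 and 0.50 in Vec 3. In U251MG WWOX 2 they were at 0.88 and -0.03, in T98G WWOX 1 at -0.03 and -1.16, and in T98G WWOX 2 at 0.04 and 0.98. Both lists deviated in the same direction in DBTRG-05MG Vec 1 and in each T98G library but Vec 3. What sets the libraries of a group apart, such as culture density, feeding or time of harvest, is not given in the sources used here, and the part of proliferation in the members' levels was not tested. In bulk RNA, fewer cells that express a gene and less of its RNA per cell cannot be told apart.

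**Figure D3:**
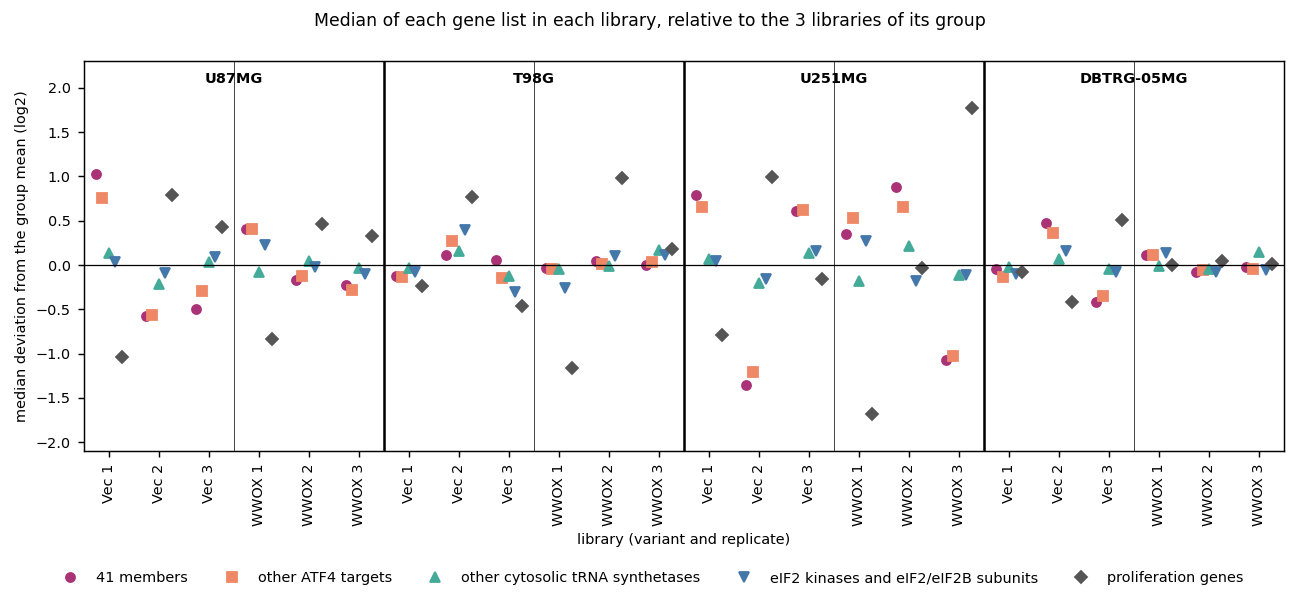
Median deviation of each gene list from its group mean, in log2 units, for each of the 24 libraries. Members and other ATF4 targets lie together, at 1.03 and 0.75 in U87MG Vec 1 and at -1.35 and -1.21 in U251MG Vec 2, the other cytosolic tRNA synthetases and eIF2 genes stay near 0, and proliferation genes lie on the other side in these libraries.

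No member passed the test of WWOX against Vec in any line. With limma and Benjamini-Hochberg adjustment over 12327 genes, 0 of 41 members were called in U87MG, where 3.2% of all genes were. T98G (1.14%), U251MG (0.316%) and DBTRG-05MG (1.02%) likewise had 0. At an unadjusted p under 0.05, 6 members were past in U87MG (11.5% of all genes), 1 in T98G (11.5%), 0 in U251MG (11.5%), and DBTRG-05MG had 0 (7.63%). edgeR and limma-voom on tags recovered from the CPM also called 0 members in each line, and DESeq2 called 1, ATF5 in T98G (log2FC 1.39, adjusted p = 0.0109). The median SE of a member's log2FC was 0.55 against 0.32 over all genes. A gene had the same SE in each line, because the model shared its estimate of the spread across the 8 groups. The SE in T98G thus also reflects the wider spread of the other lines.

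The point estimates were mostly positive. WWOX minus Vec was above 0 for 36 of 41 members in U87MG (47.5% of all genes), 32 in T98G (45.4%), 26 in U251MG (49.7%) and, for DBTRG-05MG, 32 (50.5%), and the medians over the members were 0.55, 0.23, 0.19 and 0.22 against -0.04 to 0.00 over all genes. These members moved together between libraries, so their signs are not separate observations. The spread of the members' median score between libraries of a group (SD) was 0.71 for U87MG, 0.11 for T98G, 1.06 for U251MG and 0.33 for DBTRG-05MG. In T98G, 12 members had all 3 WWOX libraries above all 3 Vec libraries (7.0% of all genes) and 0 had them below (9.21%). In DBTRG-05MG this held for 5 above (9.46%) and 0 below (10.3%), in U87MG for 1 above (7.74%) and 1 below (9.73%), and in U251MG for 0 above (5.43%) and 0 below (5.01%). These counts are on the scaled values, and those on CPM as deposited differed. T98G then had 7 above (5.91% of all genes) and 3 below (10.3%), and DBTRG-05MG 7 above (10.9%) and 0 below (8.35%). In U87MG there were 1 above (9.11%) and 0 below (7.57%), and in U251MG 0 above (4.85%) and 0 below (4.6%).

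**Figure D4:**
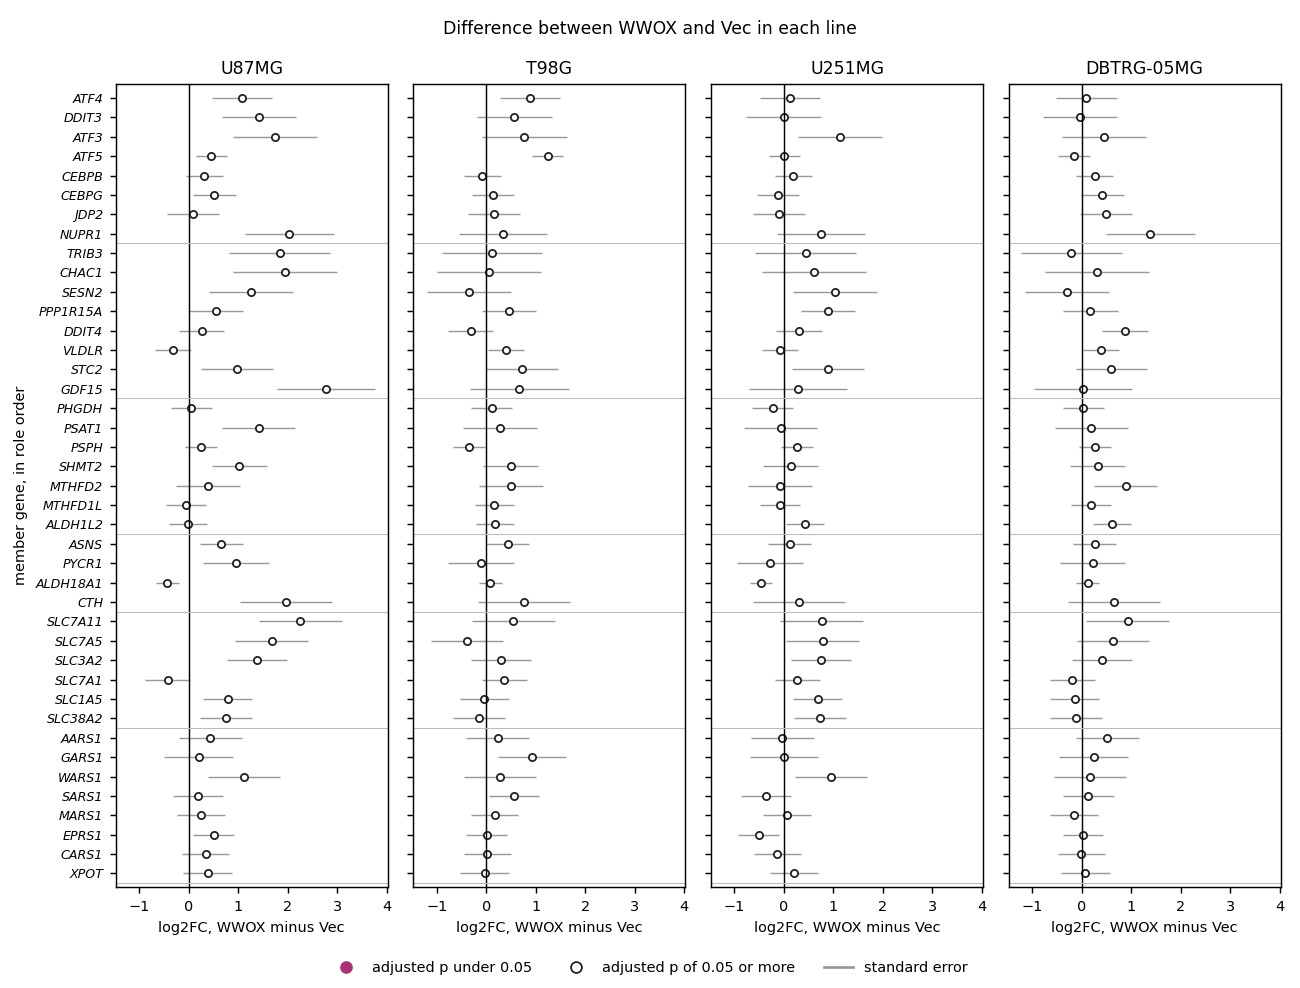
Difference between WWOX and Vec (log2FC, points) with its standard error (bars) for each of the 41 genes in each line, from the model over 12327 genes; filled points would mark an adjusted p under 0.05, and there are none. Most points lie to the right of 0, with wide bars, and the points of U87MG reach 2.78.

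In U87MG the largest positive differences were those of GDF15 (log2FC 2.78 ± 0.99 SE, adjusted p = 0.18), SLC7A11 (2.25 ± 0.84, adjusted p = 0.20) and NUPR1 (2.03 ± 0.90, adjusted p = 0.35). GDF15 was at 886, 469 and 577 CPM in WWOX, against the 506, 23.5 and 53.3 CPM of Vec given above. SLC7A11 was at 87.6, 31.1 and 35.7 CPM and NUPR1 at 1210.2, 1473 and 2393 CPM in WWOX. In all 3 genes Vec 1 lay within the WWOX range and the other 2 Vec libraries lay below it. The most negative differences were those of ALDH18A1 (-0.43 ± 0.23, adjusted p = 0.53), SLC7A1, an arginine and lysine transporter (-0.42), and VLDLR (-0.31). CEBPB, a bZIP partner of ATF4, was the member whose WWOX libraries lay above Vec (677, 721 and 679 against 589, 479.6 and 532 CPM, log2FC 0.32, adjusted p = 0.94).

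U87MG Vec replicate 1 decided this comparison. Without that library, 4 members were called (3.82% of all genes), all higher in WWOX, namely GDF15 (log2FC 4.06, adjusted p = 0.0134), CTH (3.30, adjusted p = 0.0233), SLC7A11 (3.49, adjusted p = 0.00617) and SLC7A5 (2.96, adjusted p = 0.00176), and the median over the members was 1.02. Without Vec 2 it was 0.38, with 0 members called. The labels give no reason to leave out replicate 1, and the values with it stand as the result.

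In T98G, whose libraries agreed best, ATF5 came closest to the threshold. It was at 5.34, 5.26 and 5.53 CPM in Vec and at 19, 9.35 and 13.3 CPM in WWOX (log2FC 1.24 ± 0.32 SE, adjusted p = 0.065), with no overlap. It was called when one of 4 libraries was left out, with an adjusted p of 0.0496 without U87MG Vec 2, 0.0457 without T98G WWOX 2, 0.0306 without U251MG WWOX 1 and 0.0472 without U251MG WWOX 2. GARS1 (0.93 ± 0.69, adjusted p = 0.67) and ATF4 (0.89 ± 0.61, adjusted p = 0.63) had the next largest positive values, and ATF3 had 0.77 (58.8, 81.9 and 67.6 CPM in Vec, 157, 92.5 and 112 CPM in WWOX). STC2, a secreted glycoprotein induced by stress (0.73), GDF15 (0.67), SARS1 (0.55), SHMT2, the mitochondrial serine to glycine enzyme (0.50), and PPP1R15A, the phosphatase subunit that reverses eIF2 phosphorylation (0.46), also had all WWOX libraries above Vec, as did WARS1 (0.28), AARS1 (0.23), MTHFD1L (0.17) and JDP2 (0.16). SLC7A5 had the most negative value (-0.39 ± 0.73, adjusted p = 0.90), with 379.8, 295 and 331 CPM in Vec and 276, 245 and 245 CPM in WWOX, which did not overlap as deposited and did after scaling. PSPH, the phosphatase that ends serine synthesis (-0.35), and SESN2, an inhibitor of mTORC1 (-0.35), came next. TRIB3 (0.11) and CHAC1 (0.05) were near 0. Genes of chromosome 17, which carries PYCR1, sat lower in T98G by a median of 0.31 relative to the whole table, beside a log2FC of -0.11 for PYCR1, a proline-forming enzyme.

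In U251MG the groups of every member overlapped. ATF3 (1.13 ± 0.85 SE, adjusted p = 0.67), SESN2 (1.03 ± 0.85, adjusted p = 0.70) and WARS1 (0.96 ± 0.72, adjusted p = 0.67) had the largest positive values and EPRS1 (-0.51 ± 0.41, adjusted p = 0.70), ALDH18A1 (-0.47 ± 0.23, adjusted p = 0.44) and SARS1 (-0.36 ± 0.51, adjusted p = 0.86) the most negative. The direction rested on single libraries. Without Vec 2 the median over the members was -0.44 and 32 of 41 were negative, and without WWOX 3 it was 0.78 and 4 were negative. Without WWOX 1 it was 0.05, without WWOX 2 -0.18, and without Vec 1 or Vec 3 it was 0.47 or 0.44.

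In DBTRG-05MG, NUPR1 had the largest difference, with 283, 439 and 162 CPM in Vec and 699, 739 and 804 CPM in WWOX (1.39 ± 0.90 SE, adjusted p = 0.84). SLC7A11 had 0.93 ± 0.84 (adjusted p = 0.93), with 21.4, 67.0 and 22.6 CPM in Vec and 168, 50.4 and 31.2 CPM in WWOX, so that 1 library of each variant was high. MTHFD2 had 0.89 ± 0.64 (adjusted p = 0.88), with 64.7, 103 and 61.8 CPM in Vec and 213, 127 and 112 CPM in WWOX and no overlap. SLC7A5 (0.63), AARS1 (0.52) and JDP2, a bZIP repressor (0.50), also did not overlap. SESN2 (-0.29), TRIB3 (-0.21) and SLC7A1 (-0.19) had the most negative values. The median over the members was 0.48 without Vec 2 and 0.02 without Vec 3. Genes of chromosome 12, which carries DDIT3, SHMT2, ALDH1L2, SLC38A2, MARS1 and XPOT, lay 0.20 below all genes in median log2FC, and those of chromosome 10, with DDIT4 and ALDH18A1, 0.20 above.

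ASNS, asparagine synthetase, is one of the best known ATF4 targets. Its log2FC was 0.66 for U87MG, 0.44 for T98G, 0.12 for U251MG and 0.26 for DBTRG-05MG, always with an SE of 0.44 and an adjusted p of at least 0.699. It had at most 5.55 CPM in a library. PHGDH had 0.05, 0.11, -0.22 and 0.03 (SE 0.41) and PSAT1 1.42, 0.28, -0.07 and 0.20 (SE 0.74) in the same order of lines. MTHFD2 had 0.39, 0.50 and -0.07 in the first 3 lines. For DDIT3 the values were 1.42 and 0.57 in U87MG and T98G and within 0.03 of 0 in the other 2 lines (SE 0.75), for TRIB3 they were 1.84, 0.11, 0.44 and -0.21 (SE 1.02), and for CHAC1 1.94, 0.05, 0.60 and 0.32 (SE 1.05). ATF4 had 1.08 in U87MG, 0.12 in U251MG and 0.10 in DBTRG-05MG, and ATF3 1.74 in U87MG and 0.46 in DBTRG-05MG. SLC7A11 had 0.76 in U251MG and 0.55 in T98G.

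Averaged over the 4 lines, 0 of 41 members were called (1.78% of all genes) and 6 had an unadjusted p under 0.05 (15.4%), all of them with a positive value. These were NUPR1 (mean log2FC 1.13 ± 0.45 SE, adjusted p = 0.23), SLC7A11 (1.12 ± 0.42, adjusted p = 0.20), ATF3 (1.02 ± 0.43, adjusted p = 0.25), STC2 (0.80 ± 0.36, adjusted p = 0.30), SLC3A2, the heavy chain shared by SLC7A5 and SLC7A11 (0.71 ± 0.30, adjusted p = 0.27), and ATF5 (0.39 ± 0.16, adjusted p = 0.24). All of these but ATF5 had positive values in each of the 4 lines. The average was positive for 39 of 41 members, with a median of 0.34. The share of all genes with a positive value was 45.4% to 50.5% in the single lines and was not counted for the average. Because the members moved together between libraries, these signs are not separate observations. Exact permutation (two-sided) of Vec and WWOX within each line, with 160000 arrangements, was run for 10 members. This exact permutation gave p = 0.028 for SLC7A11, p = 0.039 for ATF3, and p = 0.11 for ATF4 and for ASNS. The same exact permutation gave p = 0.22 for CHAC1, p = 0.23 for MTHFD2 and p = 0.25 for DDIT3. By exact permutation, PSAT1 had p = 0.28, TRIB3 p = 0.38 and PHGDH p = 0.98. None of these 10 values is adjusted. Of the 10 members, SLC7A11, ATF3, ATF4, ASNS and CHAC1 had a log2FC above 0 in 4 of 4 lines. Without U87MG Vec 1, SLC7A11 (1.42, adjusted p = 0.0265) and SLC7A5 (0.99, adjusted p = 0.0411) were called in the average.

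The difference between a line and the mean of the other 3 was tested directly. It called 0 of 41 members for U87MG (2.39% of all genes), T98G (1.54%), U251MG (0.422%) and DBTRG-05MG (0.982%), so no difference between lines in the response of these genes was detected. edgeR, limma-voom and DESeq2 also called 0. At an unadjusted p under 0.05 there was 1 member for U87MG (9.92% of all genes), 1 for T98G (12.8%), 0 for U251MG (11.4%) and 0 for DBTRG-05MG (7.1%). Without U87MG Vec 1, SLC7A5 was called for U87MG (2.63 above the other lines, adjusted p = 0.0204).

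The lines themselves differed in these genes, in both directions, when the Vec groups were compared. Vec of U87MG had 13 members lower (25.2% of all genes) and 2 higher (19.9%) than the mean of the other Vec groups, and Vec of T98G had 14 higher (20.1%) and 3 lower (20.4%). U251MG had 4 higher (16.5%) and 3 lower (18.4%), and DBTRG-05MG 7 higher (22.7%) and 5 lower (19.9%). Read against these shares, the 13 lower members of U87MG were near the background and the 14 higher members of T98G were above it, which was not tested. The medians over the members were -0.68, 0.84, -0.15 and 0.25 log2 units, beside -0.05, -0.02, 0.01 and 0.03 over all genes. U87MG and U251MG shared a medium, but each of these comparisons also includes lines grown in another, so that line and medium cannot be told apart in them.

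In U87MG Vec, the lower genes were the transcription factors DDIT3 (-2.48 log2 units) and CEBPG (-1.77), TRIB3 (-4.17) and GDF15 (-3.22), the serine and glycine enzymes PSAT1 (-1.65), PSPH (-1.29) and SHMT2 (-2.17), ASNS (-1.24) and PYCR1 (-1.39), the transporters SLC7A11 (-2.60), SLC7A5 (-2.48) and SLC3A2 (-1.67), and AARS1 (-1.61). CEBPG, a small C/EBP partner of ATF4, was at 44.4, 16.9 and 19.6 CPM in U87MG Vec and at 49.0 to 142 CPM in the 9 other Vec libraries, with no overlap on either scale. The higher genes were CEBPB (0.87) and ALDH1L2, a mitochondrial folate enzyme (1.36). Since Vec 1 was high, these estimates depended on it and on the other libraries that stood apart. The 15 calls became 21 without U87MG Vec 1, 8 without Vec 2, 9 without Vec 3, and 23 without U251MG Vec 2. DDIT3, CEBPG, TRIB3, PSPH and SHMT2 were called lower under every alternative run on the Vec groups and without each library in turn.

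T98G Vec was marked by its transporters. SLC7A5 (3.03 log2 units above the other Vec groups, adjusted p = 0.000298), SLC7A11 (2.43), SLC38A2, a neutral amino acid transporter (2.06), SLC3A2 (1.79) and SLC1A5, the glutamine transporter (1.53), made 5 of the 6 transporters higher. SLC7A5 was at 295 to 379.8 CPM in T98G Vec and at 7.26 to 146 CPM in the other Vec libraries. NUPR1 (3.10, 1625 to 3711 against 66.6 to 1609.6 CPM), TRIB3 (2.52), SHMT2 (1.99), STC2 (1.81), MTHFD2 (1.35), AARS1 (1.35), PPP1R15A (1.29), CARS1 (1.02) and CEBPB (0.84) were also higher. The ranges of NUPR1 are as deposited, and after scaling they overlapped, with U87MG Vec 1 above T98G Vec 2. VLDLR (-2.73, with 0.856 to 1.75 CPM in T98G Vec), ALDH1L2 (-1.67) and ALDH18A1 (-0.55) were lower. NUPR1, SHMT2, SLC7A11, SLC7A5, SLC3A2, SLC1A5 and SLC38A2 were called higher under every alternative run on the Vec groups and without each library. VLDLR was called lower under the same conditions. The count of 17 was 9 without T98G Vec 1 and 11 without T98G Vec 3.

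In U251MG Vec, VLDLR (1.84), PSPH (1.27), ALDH18A1 (0.90) and PHGDH (0.89) were higher and SLC38A2 (-1.66), SHMT2 (-1.41) and ALDH1L2 (-0.93) were lower. PHGDH (302 to 781 CPM in U251MG Vec) and PSPH (105 to 209 CPM) are the first and last enzymes of serine synthesis, and PSAT1, which stands between them, did not pass the test (0.39 ± 0.60 SE, adjusted p = 0.67). VLDLR, PSPH and ALDH18A1 were called under every alternative run on the Vec groups and without each library. Each of the 3 lower genes lost its call without some library, although SHMT2 and SLC38A2 kept it under every alternative run.

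DBTRG-05MG Vec had higher GDF15 (2.44, 1509.6 to 2659.7 CPM), DDIT3 (1.85), SHMT2 (1.60), ALDH1L2 (1.25), XPOT, the tRNA exportin (1.02), ASNS (1.01) and MARS1 (0.99). DDIT4, an mTORC1 inhibitor (-1.78, 71.6 to 109.8 CPM against 146 to 461 CPM in the other Vec libraries), CEBPB (-1.56), PHGDH (-1.38), ATF5 (-1.20) and ALDH18A1 (-0.59) were lower. The 4 genes DDIT4, CEBPB, PHGDH and ATF5 stayed called under every alternative run on the Vec groups and without each library. Each of the 7 higher genes lost its call without some library, although DDIT3, GDF15 and SHMT2 kept it under every alternative run. ALDH1L2 and ASNS were not tested in the setting that required a mean of at least 5 CPM. The 12 calls were 4 without Vec 2 of DBTRG-05MG.

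ATF4 mRNA itself did not pass the test in any of these comparisons, with differences in Vec of -1.0 for U87MG, 1.02 for T98G, -0.74 for U251MG and 0.72 for DBTRG-05MG and an SE of 0.50 each.

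**Figure D5:**
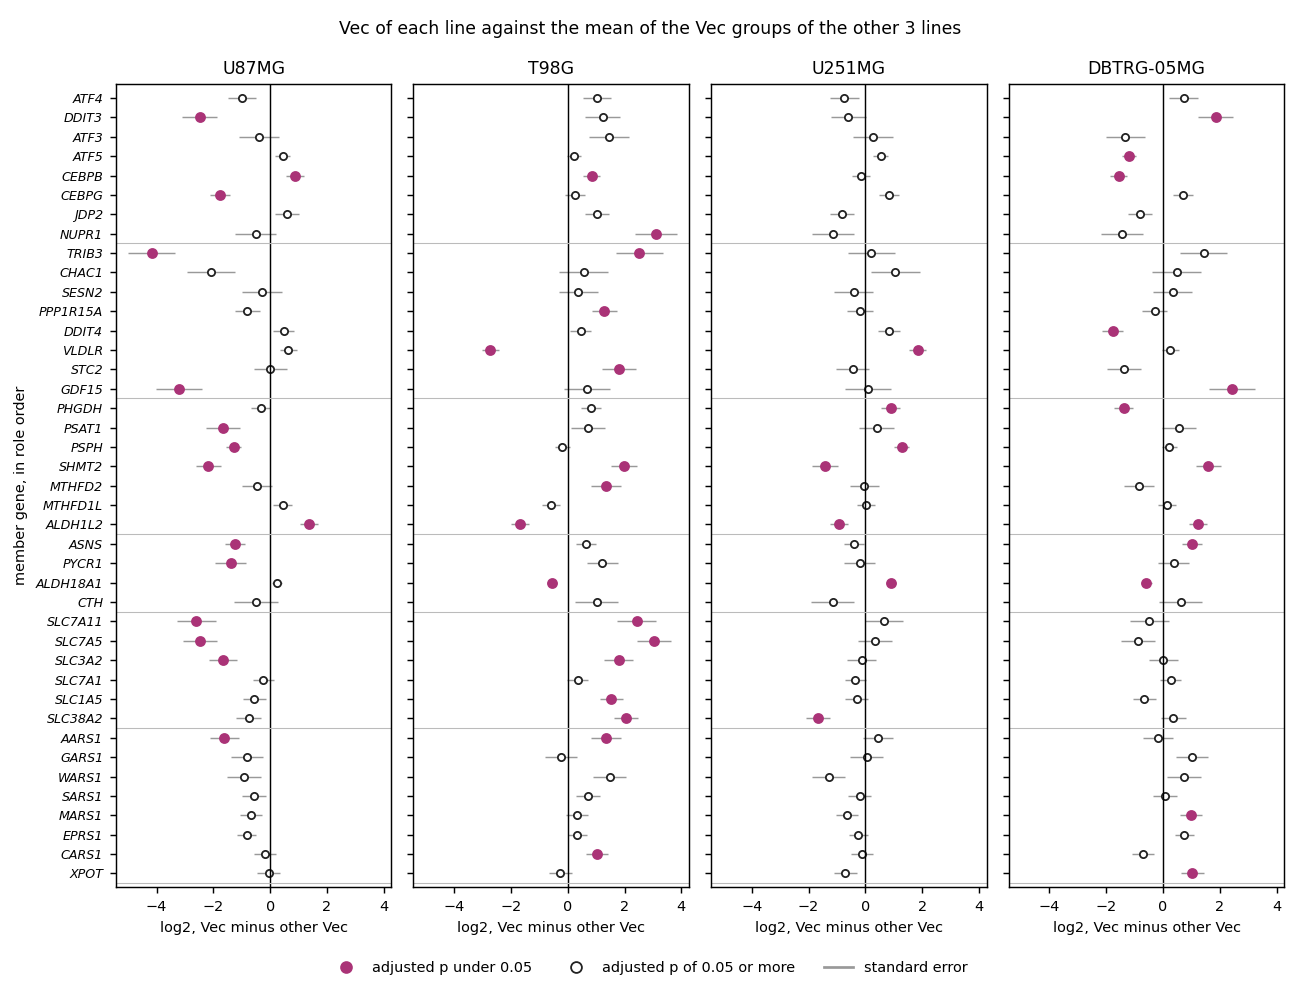
Vec level of each line minus the average Vec level of the other 3 (log2, points) with its standard error (bars) for the 41 genes; filled points have an adjusted p under 0.05. U87MG points lie mostly to the left of 0 and T98G points to the right, with the transporters of T98G between 1.53 and 3.03 except SLC7A1.

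Genes upstream of ATF4 and the further targets were counted on the same tests. The 14 eIF2 genes include PPP1R15B and IMPACT beside the kinases and the eIF2 and eIF2B subunits. Of these 14, 0 were called for WWOX against Vec in any line by limma, edgeR, limma-voom or DESeq2. An unadjusted p under 0.05 was held by 3, 1, 1 and 0 in U87MG, T98G, U251MG and DBTRG-05MG. Of the 21 further ATF4 targets tested (of 24 listed), 1 was called in U87MG, ADM2, a secreted peptide of the calcitonin family, and 1 in T98G, IFRD1, a stress-related coregulator. ADM2 was at 0.568, 0.0773 and 0.140 CPM in U87MG Vec and at 1.16, 1.49 and 1.95 CPM in WWOX (log2FC 1.46, adjusted p = 0.0474), so its Vec values rested on few tags, and edgeR and limma-voom did not call it. IFRD1 was at 4.64, 5.89 and 5.60 CPM in T98G Vec and at 14.8, 13.4 and 19 CPM in WWOX (log2FC 1.46, adjusted p = 0.0176). All 4 tools called it there and in the mean of the 4 lines (0.70, adjusted p = 0.0146). The median log2FC of the further ATF4 targets was 0.59 for U87MG, 0.14 for T98G, 0.07 for U251MG and 0.15 for DBTRG-05MG. For the 8 other cytosolic tRNA synthetases, 10 p53 targets, 10 hypoxia genes, 8 NRF2 targets and 10 proliferation genes, limma called 0 in each line. At an unadjusted p under 0.05 no more than 4 genes of a list were past in a line, the most being the 4 proliferation genes lower in U251MG WWOX (median -1.29). The other tools called EGLN3 in U87MG (edgeR and DESeq2) and ADM in U251MG (DESeq2), both hypoxia genes. In the mean of the 4 lines, DESeq2 alone called 2 of the 8 NRF2 targets, GCLM and OSGIN1 (298 of 12327 genes in all). For the difference of U251MG from the other lines, DESeq2 called NARS1, a further ATF4 target (172 of 12327 genes). DESeq2 also called EGLN3 for that of U87MG. In the same order of lines as above, median log2FC was -0.21, 0.18, -0.21 and 0.15 for the eIF2 genes, -0.18, 0.09, -0.42 and -0.20 for the other synthetases, 0.12, -0.05, 0.06 and -0.01 for the p53 targets, -0.03, -0.01, 0.77 and 0.47 for the hypoxia genes, and 0.60, 0.59, 0.57 and 0.29 for the NRF2 targets. That of the proliferation genes was -0.23 in U87MG, -0.37 in T98G and -0.25 in DBTRG-05MG. In the Vec comparison, 8 of the 21 further ATF4 targets were lower (25.2% of all genes) and 0 higher (19.9%) in U87MG, and 4 were higher (20.1%) and 1 lower (20.4%) in T98G. U251MG had 1 higher (16.5%) and 2 lower (18.4%), and DBTRG-05MG 5 higher (22.7%) and 1 lower (19.9%). Other lists differed between the Vec groups as well. Of the 8 NRF2 targets, 7 were higher in T98G, led by NQO1 (3.39), GCLC (3.18) and SRXN1 (2.70), beside the higher SLC7A11 of that line, while 3 were lower in U87MG and 5 in DBTRG-05MG. Of the 10 p53 targets, 9 were higher in DBTRG-05MG, beside its higher GDF15, 9 were lower in T98G, 5 were lower in U251MG, and U87MG had 3 higher and 1 lower. The part of either list in the members' levels was not tested. The 10 hypoxia genes had 3 higher and 1 lower in U87MG and in T98G, 2 higher and 1 lower in U251MG, and 1 higher and 4 lower in DBTRG-05MG. Of the 14 eIF2 genes, 3 were higher and 2 lower in U87MG, 2 were higher in T98G, 1 was higher in U251MG, and 1 was higher and 5 lower in DBTRG-05MG. The other synthetases had at most 1 call in a line, and of the proliferation genes 2 were higher in U87MG.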

How the data were processed

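The authors aligned CAGE reads to hg38 with STAR, counted tags per gene with SAMtools in R, and deposited CPM (tags per 1000000 tags on genes) without pooling replicates. The gene annotation, its strand handling and the treatment of overlapping genes are not given in the sources used here. Groups and replicate numbers came from the labels. In the deposited CPM, 100% of values per library were whole multiples of 1 tag within 0.01, which gave the tags and the depth. Identifiers were matched to GENCODE release 44 (43033 of 43037).

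CPM were scaled with TMM factors, transformed as log2(CPM + 0.5), restricted to genes that reached 5 CPM in 1 library or more, and fitted with limma 3.58.1 (trended prior, 8 groups, 16 residual degrees of freedom, R 4.3.3). Fold changes are on that scale, which understates those of low genes. Tests were two-sided, with Benjamini-Hochberg adjustment over 12327 genes and a threshold of 0.05. Single values were tested by exact permutation within lines; 3 against 3 libraries alone cannot go below 0.1. Alternatives were 11 settings, among them edgeR 4.0.16, limma-voom and DESeq2 1.42.0 on recovered tags, and leaving out each of 24 libraries. The model per line and the model with the replicate number as a block were not run for the comparisons between Vec groups. The scripts were tested on simulated data. Python 3.11.15 drew the figures and searched the RefSeq windows.

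The members and lists were chosen with earlier results of these data known. The genes named were 10 core members in every line, each member past the threshold in a comparison, and the 3 most positive and 3 most negative per line. Others were named where their libraries did not overlap or their libraries stood apart, after their values were seen. Labels do not say how cultures were separated, so p-values measure the spread between these libraries. For each gene, the model shared its estimate of that spread across the 8 groups. The SE and p-values of a line therefore also carry the spread of the other lines. For the members that spread was wider in U87MG Vec and in U251MG than in T98G.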

Additional observations from a re-analysis of the deposited data

How the results depend on the processing

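The 11 alternative settings (pseudocounts of 0.1 and 1, other filters, other scalings, a model per line, the replicate block and 3 tests on recovered tags) left the count of members called for WWOX against Vec at 0 in every line, except that DESeq2 called 1 in T98G (ATF5). Leaving out 1 library gave 0 to 4 calls in U87MG, 0 to 1 in T98G, 0 to 1 for the difference of U87MG from the other lines and 0 to 2 in the mean of the 4 lines, all highest without U87MG Vec 1 save T98G. The counts between Vec groups ranged from 8 to 23 in U87MG, 9 to 23 in T98G, 6 to 8 in U251MG and 4 to 16 in DBTRG-05MG. The members' median log2FC ranged from 0.38 to 1.02 in U87MG, 0.18 to 0.31 in T98G, -0.44 to 0.78 in U251MG and 0.02 to 0.48 in DBTRG-05MG. The cause was not tested. Same-numbered Vec and WWOX libraries did not resemble each other throughout: over all genes their deviations correlated from -0.546 to 0.51. In U87MG, however, replicate 1 held the highest value of most members in both variants (39 of 41 in Vec and 32 of 41 in WWOX). Whether same-numbered libraries belong together was not tested. Differently numbered ones correlated from -0.634 to 0.701, and the highest value was that of U251MG Vec 2 with U251MG WWOX 3. With the replicate number as a block, 0 members were called in each line, and calls over all genes went from 395 to 307 in U87MG, 140 to 63 in T98G, 39 to 23 in U251MG and 126 to 76 in DBTRG-05MG. ASNS, ALDH1L2 and GARS1 rested on few tags; the parts of depth and of the spread between libraries in their errors were not tested.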
